A study of Mus musculus with 4 samples.

Results

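Nodal and activin signalling was examined through 9 genes on arrays of mouse embryonic stem (ES) cells and extraembryonic endoderm (XEN) cells. These were the ligand genes Nodal, Gdf3 and Inhba, the co-receptor gene Tdgf1, the receptor gene Acvr1 and the transducer gene Smad2. The others were the antagonist genes Lefty1 and Fst, and the follistatin-related gene Fstl1. All 9 are among the 8251 genes that the array reads under a single symbol. Every probe set annotated to exactly 1 of these symbols was taken, which gave 11 of the 12488 probe sets: 7 genes had 1 probe set, and Gdf3 and Lefty1 had 2 each. Total RNA of each of 4 cultures was hybridised to an Affymetrix array of type MG_U74Av2. ES cells were represented by a single culture of undifferentiated R1 cells, a line of pluripotent cells, kept on gelatin with LIF. XEN cells, lines of the lineage that lines the yolk sacs, were represented by 3 cultures. The cultures IM8A1-I and IM8A1-II both came from 1 line, IM8A1 (strain PO, passage 27). The former had a gelatin substrate and 70% EMFI-CM, and the latter spent 4 days in RPMI 1640 with 20% FBS on plastic for tissue culture. The culture XEN1-3 (ICR strain, passage 18) shared the substrate and medium of IM8A1-I. The 3 XEN arrays therefore stand for 2 lines, and p-values measure the spread between these cultures only, with the single ES culture assumed to vary in the same way.

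Nodal, Gdf3 and the activins, which are dimers of inhibin beta chains such as that encoded by Inhba, are ligands of the TGF-beta family. They act through type I and type II receptor kinases that phosphorylate Smad2 and Smad3, and Nodal and Gdf3 also need an EGF-CFC co-receptor such as Cripto, the product of Tdgf1. Lefty1 blocks Nodal and is itself switched on by Nodal signalling, while follistatin, the product of Fst, binds activins and keeps them from their receptors. In the early embryo Nodal is known for its part in the epiblast, in the patterning of the visceral endoderm and in the formation of mesoderm and endoderm.

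Signal is given in arbitrary units, XEN values stand in the order IM8A1-I, IM8A1-II, XEN1-3 throughout, and 27.3 units, the 40th percentile of all values, served as a background limit, which is not a detection call. Between 59.6% and 60.5% of the probe sets reached it on each array. Marker genes were read as a check of the labels, each by its brightest probe set. All 6 pluripotency markers fell and all 8 extraembryonic endoderm markers rose in XEN (limma adjusted p under 0.05). Their summed signals were, in that order, 13408 units in ES against 188 to 219 in XEN, and 293 against 15432 to 19995. Over all tested probe sets of a gene, limma called 1 of 2 for Pou5f1 and Pdgfra, and 2 of 3 for Gata6 and Dab2. The ES array came from another chip lot than the XEN arrays, so that the lot cannot be told apart from the cell type. The run record of XEN1-3 carries a message that no fluid was detected at 1 position.

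Of the 11 probe sets, 9 reached the limit on at least 1 array and were tested. Among them 4 fell in XEN (Nodal, Gdf3, Tdgf1 and Lefty1), 2 rose (Fst and Acvr1) and 3 did not pass (Inhba, Smad2 and Fstl1), at a limma adjusted p under 0.05. Over all 8582 tested probe sets 5.05% fell and 5.58% rose, 10.6% in all. For 5 of the 9, 1 group lay wholly under the limit, so that these entered the test through the group in which they were high, and their number is a description. The 2 groups did not overlap for 8 of the 9, with XEN above ES for 4 and below for 4; the same held for 39% and 34% of all tested probe sets, so a lack of overlap was common on these arrays.

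**Figure D1:**
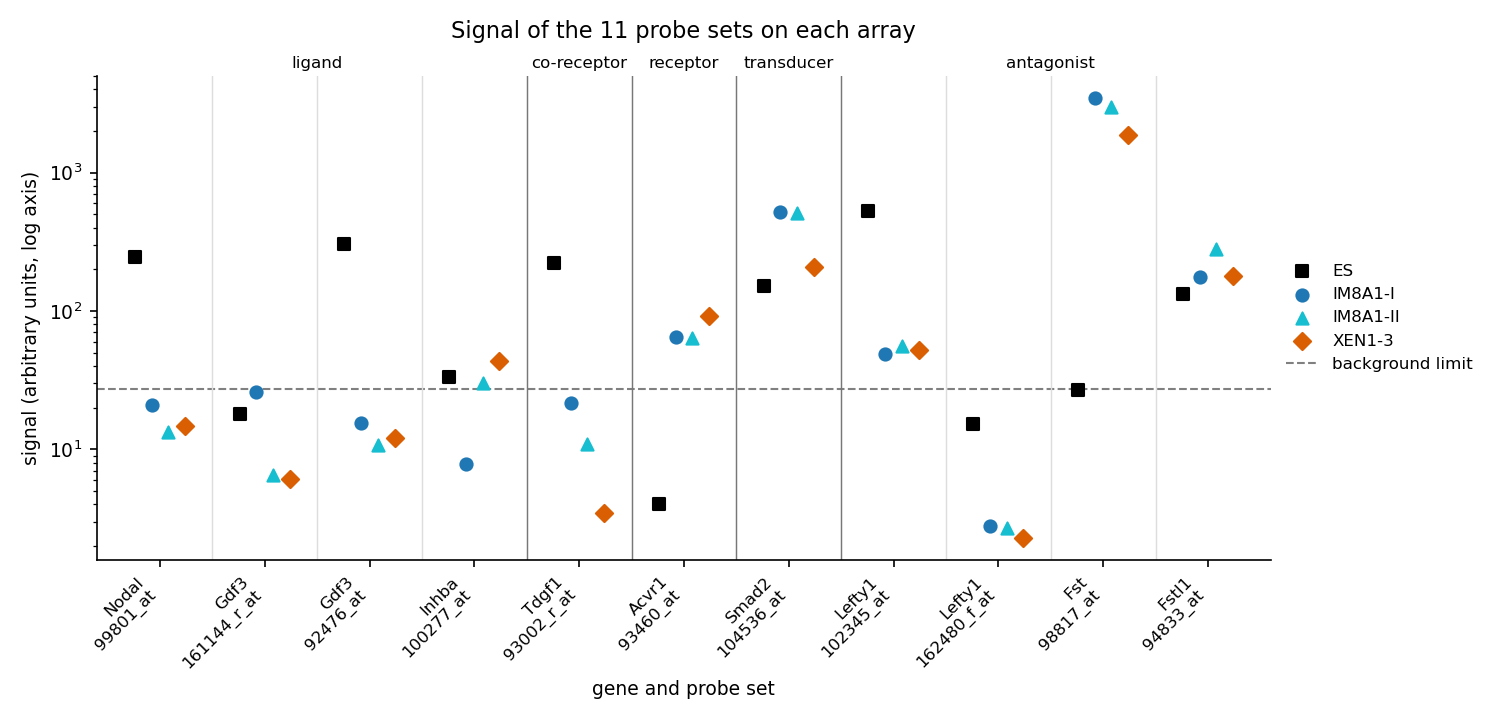
Signal of each of the 11 probe sets (x axis, grouped by role) on each of the 4 arrays, in arbitrary units on a log axis; each point is 1 array and the dashed line is the background limit of 27.3 units. Nodal, Gdf3 (92476_at), Tdgf1 and Lefty1 (102345_at) are highest in ES, and Fst and Acvr1 are highest in the 3 XEN arrays.

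Among the ligands, Nodal (probe set 99801_at) stood at 245 units in ES and at 20.8, 13.3 and 14.7 in the XEN arrays. The XEN arrays were all under the limit. Nodal was thus at least 8.97-fold lower in XEN. The difference on the log2 scale, taken after adding 10.5 units to each value, was -3.26 ± 0.34 (SE, limma adjusted p = 0.00733). As for Gdf3 and Tdgf1 below, the SE and p rest on XEN values under the limit. They therefore do not measure how the gene itself varies between cultures. In bulk RNA such as this, fewer cells that express a gene and less RNA per cell cannot be told apart.

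Gdf3, a Nodal-related ligand known from pluripotent cells, showed the same arrangement with its brighter probe set (92476_at), at 305 units in ES and 15.6, 10.8 and 12 in the XEN arrays. It was at least 11.2-fold lower, with a log2 difference of -3.76 ± 0.33 (SE, adjusted p = 0.00503 by limma). Only the ES array was over the limit. The second Gdf3 probe set (161144_r_at) lay under the limit on all 4 arrays, at 18.1 units in ES and 25.9, 6.50 and 6.10 in XEN, and was not tested. It gave no order of the groups, since IM8A1-I was above ES and the other XEN arrays below it.

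Inhba, the gene of the activin A subunit, was dim everywhere, at 33.3 units in ES and 7.80, 30.2 and 43.6 in XEN. The ES value fell inside the XEN range, and XEN was 27.2 ± 18.1 units (SD, n = 3). The log2 difference of -0.35 ± 0.64 (SE) did not pass (limma adjusted p = 0.752), and without IM8A1-I it was 0.099, with the sign turned.

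Tdgf1, whose product Cripto anchors Nodal to its receptors, was read by 1 probe set (93002_r_at) at 223 units in ES and 21.7, 11 and 3.50 in the XEN arrays. All 3 XEN values were under the limit, which leaves no order among them. Tdgf1 was at least 8.15-fold lower, and its log2 difference was -3.45 ± 0.52 (SE; adjusted p = 0.0177, limma). The suffix r marks a probe set for which the maker relaxed its probe selection rules, and whether related sequences contribute to its signal was not tested.

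The receptor gene Acvr1 encodes ALK2, a type I receptor kinase that is best known for BMP signalling and also binds activin. It read 4.00 units in ES, under the limit, and 65.0, 64.3 and 92.8 in the XEN arrays, which were 74.0 ± 16.3 (SD, n = 3). By the geometric mean of the XEN arrays Acvr1 was at least 2.67-fold higher, with a log2 difference of 2.53 ± 0.34 (SE, limma adjusted p = 0.0136). On raising values to the background limit the difference was 1.42 and missed the threshold (adjusted p = 0.103). The level was modest in all 3 XEN cultures, and highest in XEN1-3.

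Smad2, the intracellular mediator of Nodal and activin receptors, stood at 151 units in ES and at 521, 515 and 208 in the XEN cultures. All XEN arrays lay above ES, with the IM8A1 cultures level with each other and XEN1-3 much nearer to ES. Over the 3 XEN arrays the log2 difference of 1.29 ± 0.56 (SE) did not pass (limma adjusted p = 0.193). Without XEN1-3 it was 1.71 and passed (adjusted p = 0.0120), in a comparison of the IM8A1 line alone with ES in which 9.07% of all tested probe sets passed as higher.

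The antagonist gene Lefty1 moved in the direction of Nodal. Its brighter probe set (102345_at) read 524 units in ES and 48.9, 55.9 and 51.9 in XEN. The XEN values stayed over the limit and lay close together, at 52.2 ± 3.51 (SD, n = 3). The log2 difference was -3.09 ± 0.27 (SE; adjusted p = 0.00503 by limma), and the ES value was 9.38 times the highest XEN value. The second Lefty1 probe set (162480_f_at; the suffix f marks a set shared by a sequence family) was under the limit throughout, at 15.3, 2.80, 2.70 and 2.30 units, and was not tested for that reason; these values leave no order.

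Follistatin went the other way. Fst read 27.0 units in ES, just under the limit, and 3475, 2990 and 1869 in XEN, or 2778 ± 824 (SD, n = 3). By the geometric mean of the XEN arrays Fst was at least 98.5-fold higher, a bound for that mean and not for each array. Its log2 difference of 6.17 ± 0.40 (SE, limma adjusted p = 0.00220) was far larger than the spread between the XEN cultures. The 2 IM8A1 cultures were higher than XEN1-3, and all were far above ES.

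Fstl1 encodes a secreted glycoprotein related to follistatin in sequence. The figures group it with the antagonists, but whether it acts as one was not tested. Fstl1 did not share the size of the rise of Fst. It read 132 units in ES and 177, 282 and 179 in the XEN arrays. All 3 XEN values were above ES, IM8A1-II by the most, but the log2 difference of 0.62 ± 0.36 (SE) did not pass (limma adjusted p = 0.304).

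**Figure D2:**
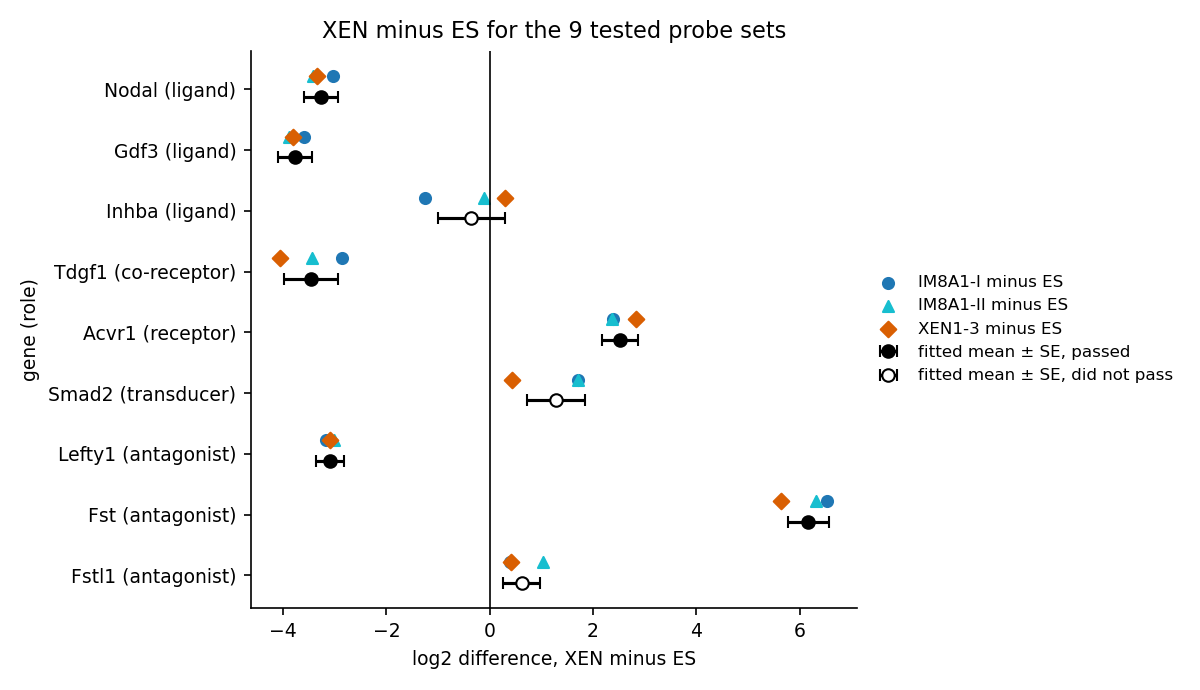
Log2 difference from ES for the 9 tested probe sets (y axis, gene and role): coloured points are the 3 XEN arrays and black points the fitted mean with its standard error, filled where limma's adjusted p was under 0.05. Nodal, Gdf3, Tdgf1 and Lefty1 lie between -3.76 and -3.09, Acvr1 at 2.53 and Fst at 6.17, while Inhba, Smad2 and Fstl1 are open.

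**Figure D3:**
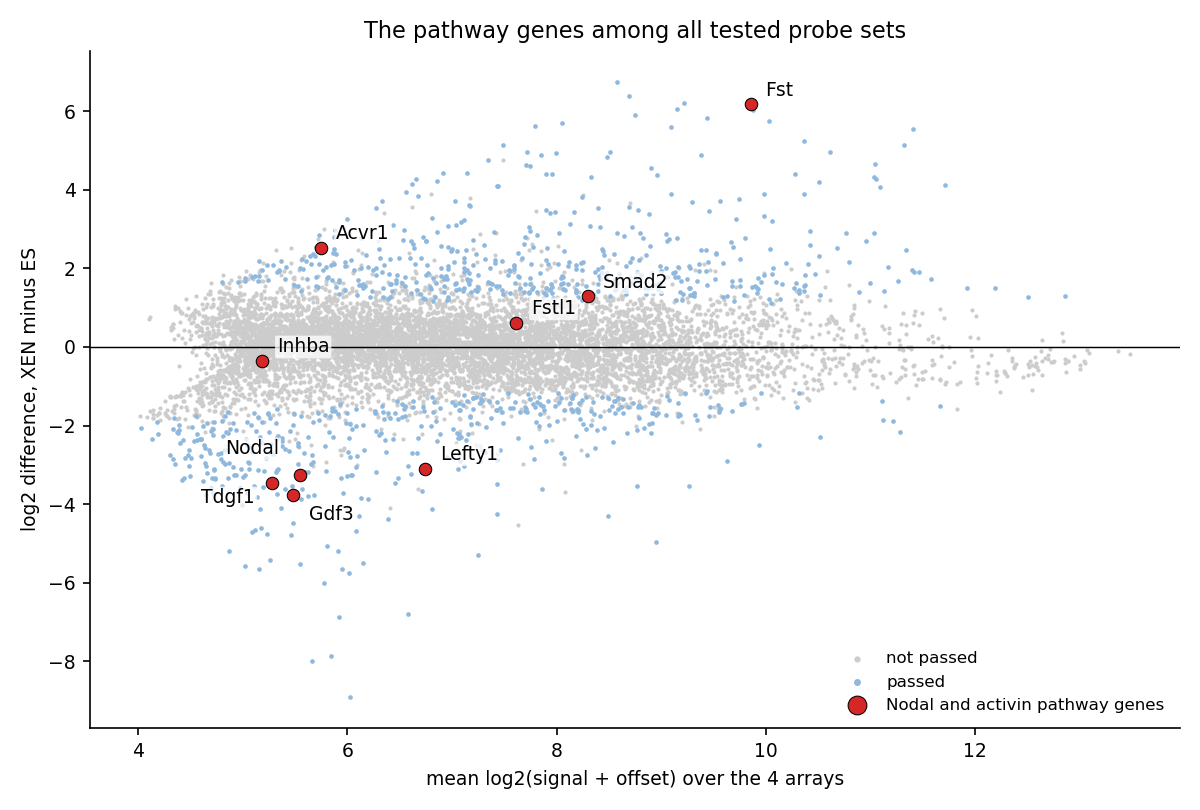
Log2 difference between XEN and ES (y axis) against the mean log2 of signal plus offset over the 4 arrays (x axis) for the 8582 tested probe sets, blue where limma's adjusted p was under 0.05; the 9 tested probe sets of the pathway are red. Fst lies near the top at 6.17, and Nodal, Gdf3, Tdgf1 and Lefty1 lie in the lower part between -3.76 and -3.09.

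The promoter sequences of Nodal and Tdgf1, which fell together, and of Acvr1, which rose, are shown here to compare their base composition. They are the 250 bases before the annotated start, from RefSeq on build GRCm38.p6, read 5′ to 3′ on the gene's strand, with CG dinucleotides in capitals. Nodal lies at chr10:61417722-61417971 (plus strand), Tdgf1 at chr9:110946159-110946408 (minus strand) and Acvr1 at chr2:58566829-58567078 (minus strand).
Nodal: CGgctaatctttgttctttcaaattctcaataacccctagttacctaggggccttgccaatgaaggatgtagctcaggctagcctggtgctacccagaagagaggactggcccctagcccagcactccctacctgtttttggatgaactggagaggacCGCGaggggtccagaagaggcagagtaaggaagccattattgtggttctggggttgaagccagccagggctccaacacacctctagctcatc
Tdgf1: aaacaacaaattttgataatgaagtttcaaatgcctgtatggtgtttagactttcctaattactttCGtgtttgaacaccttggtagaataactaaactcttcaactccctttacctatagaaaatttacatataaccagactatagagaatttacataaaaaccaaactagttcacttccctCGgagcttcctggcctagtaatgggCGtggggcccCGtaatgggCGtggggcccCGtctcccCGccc
Acvr1: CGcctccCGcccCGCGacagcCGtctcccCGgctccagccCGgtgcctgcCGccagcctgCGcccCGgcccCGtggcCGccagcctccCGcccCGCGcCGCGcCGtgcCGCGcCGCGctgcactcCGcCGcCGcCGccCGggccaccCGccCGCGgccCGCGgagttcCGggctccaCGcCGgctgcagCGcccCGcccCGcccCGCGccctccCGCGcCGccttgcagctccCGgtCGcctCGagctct
The Nodal stretch held 3 CG dinucleotides and 53.2% G and C, the Tdgf1 stretch 7 and 42%, and the Acvr1 stretch 46 and 85.6%. The median over 32851 promoters was 6 CG dinucleotides, and 29%, 53.7% and 99.7% of them held fewer than Nodal, Tdgf1 and Acvr1. Promoters of 5 members were read in all. Those of Gdf3, Lefty1, Fst and Smad2 were not, so nothing is said of these genes here or in the motif search. Fstl1 held 16 CG dinucleotides and Inhba held 3, in a window that lies inside the annotated Inhba gene and not before its outermost start.

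Short motifs were searched on both strands of the 300 bases from 250 before to 50 after the start in these 5 promoters. They were AATCCACA and AATACACA (of the type bound by FoxH1, the forkhead partner of Smad2), CAGACA (Smad type), ATGCAAAT (the octamer of POU factors) and, for the family of Gata4 and its relatives, TTATCT. None of the 5 motifs matched in any of the 5 windows, while 0.855%, 0.98%, 21%, 1.74% and 11.2% of the 32851 promoters held them. This says only that these letters are not in these windows.

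Between the XEN cultures, IM8A1-II and XEN1-3 were each set against IM8A1-I, array against array and with no test; both comparisons share the IM8A1-I array. A difference counted if it was at least 2-fold on the log2 scale and at least 1 of the 2 arrays reached the limit. Under the changed culture conditions of IM8A1-II only Inhba differed that far among the members, from 7.80 to 30.2 units. The lower of these values is under the limit, so the size is not known, and with values raised to the limit no member differed 2-fold (0). By the same rule 6.27% of all probe sets differed. Nodal, Gdf3 and Tdgf1 stayed under the limit in both IM8A1 cultures. Fst (-0.22), Lefty1 (0.16), Acvr1 (-0.01) and Smad2 (-0.02) differed by less than 2-fold in log2, as did Fstl1 (0.64).

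Between the lines, 2 members passed this rule: Smad2 was lower in XEN1-3 than in IM8A1-I, at -1.28, and Inhba read 43.6 units against 7.80. With values raised to the limit 1 member differed 2-fold, and Inhba, under 2-fold above the limit in XEN1-3, did not. For all probe sets this share was 9.41%. Fst was 1.86 times as high in IM8A1-I as in XEN1-3, a log2 difference of -0.89 for XEN1-3. Tdgf1 differed by -1.20, but both of its values were under the limit. Acvr1 (0.45), Lefty1 (0.07) and Fstl1 (0.02) lay closer together. The 2 cultures differ in line, strain and passage, and XEN1-3 alone carries the fluidics message. With 1 array each, these cannot be told apart.

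Other Smad genes were set beside Smad2 after its values were seen. Smad4, the partner that Smad2 shares with the BMP Smads, read 396 units in ES and 666, 668 and 460 in XEN without passing (limma adjusted p = 0.305). Smad1, a transducer of BMP signals, read 185 against 308, 266 and 152 with its brighter probe set and 99.9 against 169, 191 and 93.5 with the other, and passed with neither. In all of these, as in Smad2, XEN1-3 was the lowest XEN array and the one nearest to ES. For the inhibitory Smad genes XEN1-3 was again the lowest XEN array, but the one farthest from ES: Smad6 read 84.6 against 38.9, 109 and 20.6 (limma adjusted p = 0.533), and Smad7 332 against 190, 154 and 118. Among all 8582 tested probe sets XEN1-3 was the lowest XEN array in 33.2%, and at least 2-fold below each IM8A1 array, as Smad2 was, in 2.46%. Smad3, the other transducer of the pathway, and Smad5 lay under the limit on all 4 arrays.

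**Figure D4:**
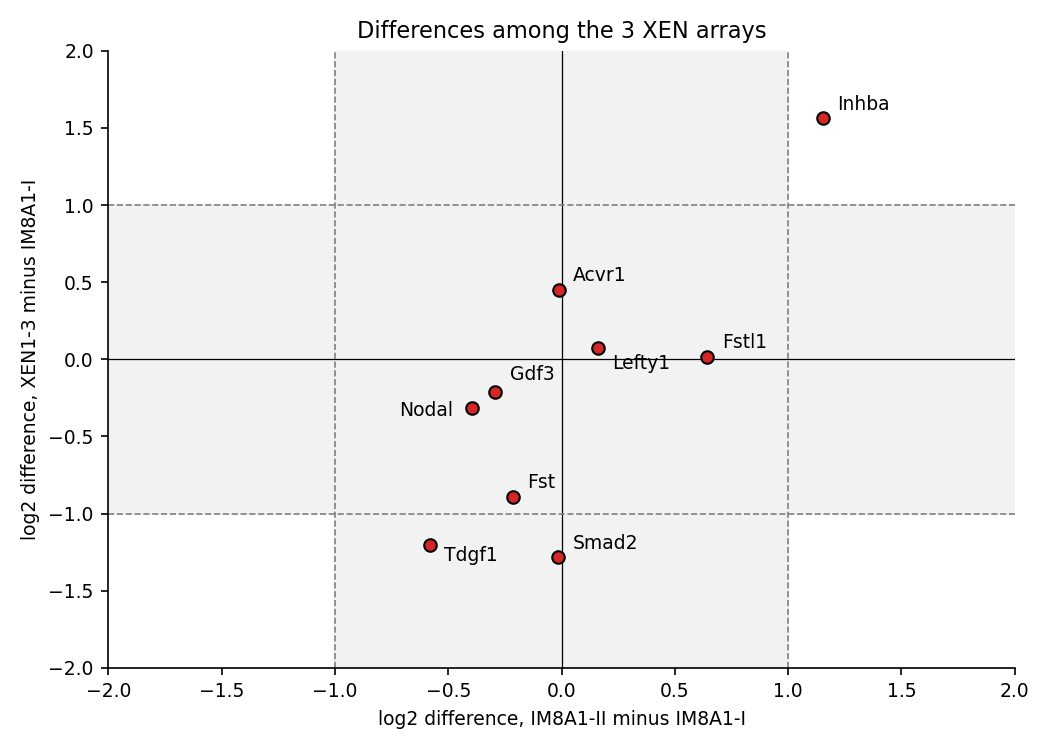
Log2 difference of IM8A1-II (x axis) and of XEN1-3 (y axis) from IM8A1-I for the 9 tested probe sets, 1 point per gene; dashed lines mark 2-fold and both axes share the IM8A1-I array. Smad2 is past 2-fold on the y axis, at -1.28, and Inhba on both axes, at 1.15 and 1.56, but from an IM8A1-I value under the background limit; Tdgf1, Nodal and Gdf3 were under the background limit on all 3 arrays.

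A wider list of 55 further genes of Nodal, activin and TGF-beta signalling was read from the same fit, with 1 probe set per gene. Of these, 42 were on the array under 1 symbol and 27 were tested, the other 15 lying below the limit throughout. Limma called 2 of the 27 as higher and 3 as lower and left 22 uncalled, against 5.58% called as higher and 5.05% as lower of all tested probe sets, and their median log2 difference was -0.14, against 0.05 for all. It was the same with the 4 genes that had only a bound set at that bound.

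Tgfbr3 (betaglycan, a co-receptor of TGF-beta and inhibin) rose from 19.3 units in ES to 108, 80.1 and 120 in the XEN arrays. By the geometric mean of these arrays it was at least 3.71-fold higher, with a log2 difference of 1.91 ± 0.33 (SE, limma adjusted p = 0.0246). Raising values to the limit ended the call (adjusted p = 0.0746), as did leaving out IM8A1-I (0.0732). Endoglin (Eng), another co-receptor of the family, fell from 190 to 68.0, 56.0 and 37.0 units, by 1.67 in log2 (limma adjusted p = 0.0448). Its call was lost without IM8A1-I (0.0691) or without IM8A1-II (0.0937), with 1 value per XEN line (0.0565), with the 5th percentile as offset (0.0506), on raising values to the limit (0.120) and with no filter (0.0817).

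Of the inhibitors, Tgif1, a homeobox corepressor of Smad2 targets, fell from 1330 units in ES to 441, 286 and 232 in XEN, by 2.07 in log2 (limma adjusted p = 0.0328); it missed the threshold without IM8A1-II (0.0770), with no filter (0.0519) and on raising values to the limit (0.107). Smad7, an inhibitory Smad induced by the pathway, stood at 332 units in ES and 190, 154 and 118 in XEN without passing (adjusted p = 0.0972). Among the proprotein convertases, which cleave the Nodal precursor, Pcsk6 (PACE4) fell from 142 to 36.3, 30.5 and 45.9 units, with a log2 difference of -1.68 (limma adjusted p = 0.0321). This call too was lost without IM8A1-I (0.0844) or without IM8A1-II (0.0750), with 1 value per line (0.0535), on raising values to the limit (0.0652) and with no filter (0.0646). Furin, a convertase of the same family, stood at 199 in ES and 327, 455 and 450 in XEN and did not pass (0.0996).

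None of the 3 tested receptor genes passed limma's test with all 3 XEN arrays (1 at an unadjusted p under 0.05, Acvr2b). The activin type II receptor gene Acvr2b read 595 units in ES and 201, 181 and 403 in XEN, a log2 difference of -1.24 (limma adjusted p = 0.156). Without XEN1-3 the difference was -1.59 and Acvr2b was called as lower, in a comparison of the IM8A1 line alone with ES. Acvr2a read 78.4 against 160, 79.4 and 130. Foxh1 stood at 55.2 in ES and 12.1, 18.5 and 17.3 in XEN and did not pass (limma adjusted p = 0.0765). It passed on raising values to the limit (limma adjusted p = 0.00246). That step made its XEN arrays equal, so the pass adds no support for a fall.

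Of 4 tested ligand genes limma called none (1 at an unadjusted p under 0.05): Gdf9 read 59.3 in ES and 142, 117 and 143 in XEN, and Tgfb1 48.6 against 34.5, 59.5 and 5.70. Of 5 tested genes known as Nodal targets in the embryo, 1 rose, the endoderm factor Foxa2, from 7.70 units to 512, 520 and 552 (limma adjusted p = 0.00175). By the geometric mean of the XEN arrays this was at least 19.3-fold. The same Foxa2 probe set was also 1 of the 8 extraembryonic endoderm markers used to check the labels. Eomes, dim at 32.6 in ES and 2.70, 2.80 and 2.30 in XEN, did not pass (limma adjusted p = 0.0626). It passed as lower with no filter (0.0140), with no variance trend (0.0221) and with the 50th percentile as offset (0.0410). It also passed on raising values to the limit (0.0193), but its XEN arrays were then equal and the log2 difference was only -0.26.

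**Figure D5:**
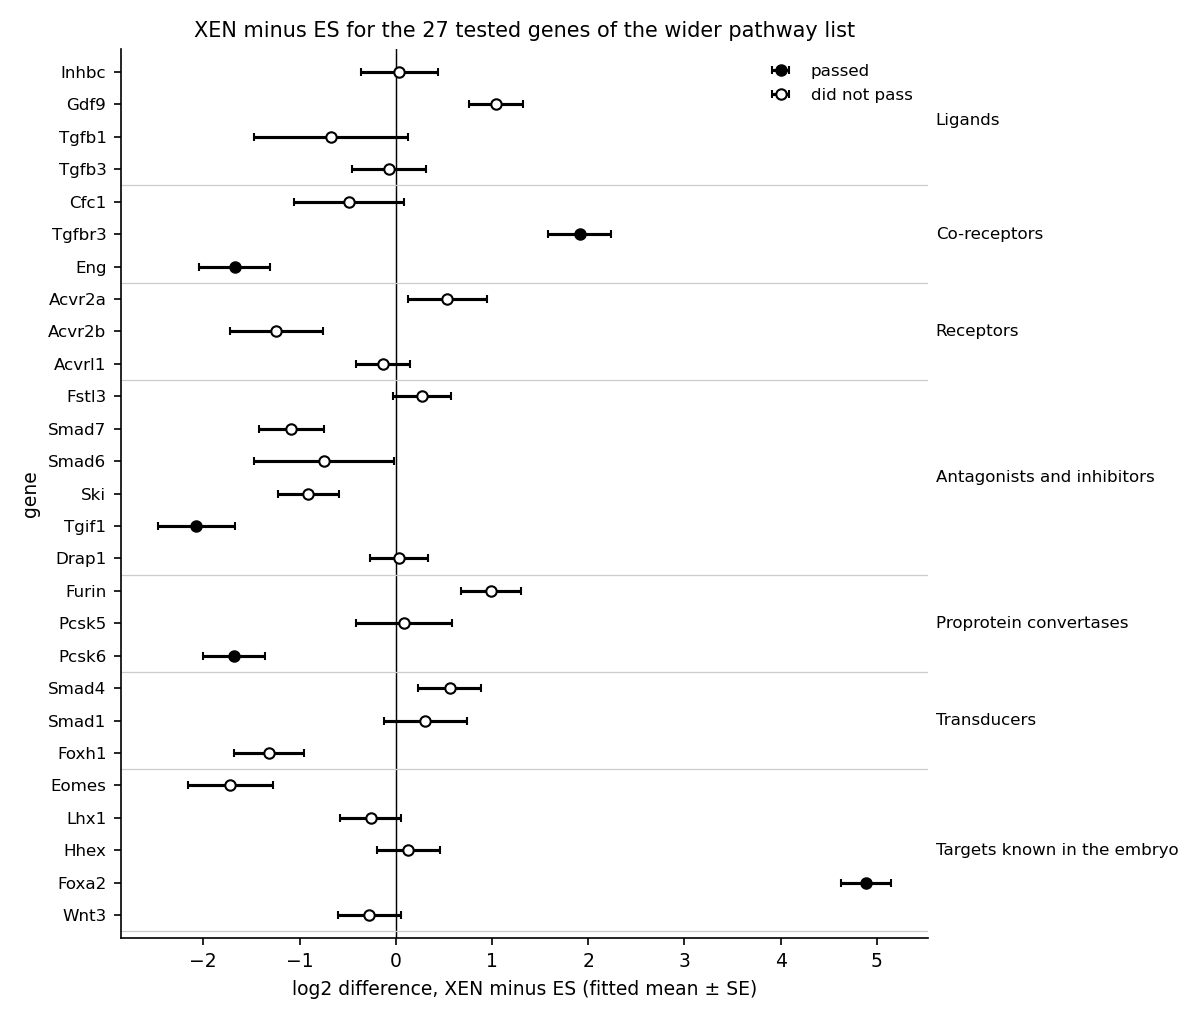
Log2 difference between XEN and ES with its standard error (x axis) for the 27 tested genes of the wider list (y axis, grouped by role), filled where limma's adjusted p was under 0.05. Foxa2 at 4.89 and Tgfbr3 at 1.91 lie to the right of 0, and Tgif1 at -2.07, Pcsk6 at -1.68 and Eng at -1.67 to the left.

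The genes whose profile over the 4 arrays was most like that of a member were found by the Euclidean distance between log2 profiles, each centred on its own mean, with no test; with 4 arrays this is a description. For Nodal they were Fgf17 (distance 0.12), Igfbp3 (0.20) and Col1a1 (0.20, by the dimmer of its 2 probe sets), and for Gdf3 another Igfbp3 probe set (0.078), the amino acid transporter gene Slc7a3 (0.23) and the carbonic anhydrase gene Car2 (0.24). Fgf17 read 123 units in ES and 5.60, 2.60 and 3.90 in XEN, and like Nodal it was under the limit in all 3 XEN arrays. Lefty1 was nearest to Laptm5 (0.12), Npdc1 (0.15) and Septin1 (0.16), and Tdgf1 to Irf1 (0.28), Stat6 (0.51) and Tm7sf3 (0.58). Apart from Car2 and Tm7sf3, the genes nearest to Nodal, Gdf3, Lefty1 and Tdgf1 were under the limit in all 3 XEN arrays. These distances therefore rest mostly on the ES value. Lefty1 itself was over the limit in XEN, while its nearest genes were not. The endoderm factor gene Sox17 (0.27), the growth factor receptor gene Pdgfra (0.53) and the cubilin gene Cubn (0.63) were closest to Fst. Sox17 read 13.9 units in ES and 1895, 1712 and 1293 in XEN, in the same order as Fst. Acvr1 was closest to the proton pump subunit gene Atp6v0a1 (0.12), Prkce (0.13) and Calu (0.16). Smad2 was closest to Vcam1 (0.11), Atp6v1c1 (0.13) and Cmtm3 (0.16), in which XEN1-3 was likewise the XEN array nearest to ES.

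Markers of other cell types were read beside these results. The fibroblast and feeder list (9 genes on the array, 6 tested) summed to 1142 units in ES and 663 to 816 in XEN. Tagln alone gave 538 of the ES units. With each gene read by its brightest probe set, limma called only Thy1 of this list (adjusted p = 0.0408). Thy1 read 48.5 units in ES and 4.6, 3 and 5.8 in XEN. Of the 2 tested Col1a1 probe sets limma called 1, the dimmer. It read 114 units in ES and 3.1, 2.1 and 1.7 in XEN, and is not in the sum. The trophoblast list (6 genes, 4 tested) summed to 908 and 84.7 to 124, but 767 of the ES units came from Tfap2c, the only member called (13.1, 14.8 and 10.8 in XEN; limma adjusted p = 0.00182). The germ layer list (5 genes, 3 tested) summed to 96.6 and 31.1 to 72.1. The visceral endoderm list (7 genes, 6 tested), a lineage in which Nodal signalling is active in the embryo, summed to 1911 in ES and to 1869, 5569 and 1358 in XEN, and these sums come from different genes. Apoe gave 1836 of the units in ES and 138, 888 and 11.6 in XEN without passing (limma adjusted p = 0.242). Rbp4, the largest part of the IM8A1-II sum, read 4.7 units in ES and 171, 2671 and 130 in XEN without passing (limma adjusted p = 0.119). It was 15.6 times as high in IM8A1-II as in IM8A1-I, with 1 array each. Cubn, the only member called, read 19.4 units in ES and 1485, 1751 and 1119 in XEN (limma adjusted p = 0.00182). Limma called 1 of its 2 tested probe sets. None of the listed genes was at 0 on all arrays, and their part in the values of the pathway genes was not tested.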

How the data were processed

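Gene expression in 4 cultures (1 ES, 3 XEN) was read from the deposited intensity table, 1 linear signal per probe set and array; the program that turned probe signals into these values was not given in the sources used here. Near-equal 2% trimmed means (150.088 to 150.095) show that the deposited intensity values had been scaled to a common level. The run record of each array, deposited as text, was read for its lot and fluidics lines.

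Each array was brought to the same 2% trimmed mean, 10.5 units (the 25th percentile of the values without controls) were added and log2 was taken, which understates the change of dim genes. The 66 control probe sets were left out of the percentiles and tests. Probe sets with at least 1 array at the 40th percentile (27.3 units) were tested. Where a group lay wholly under it, the fold is a lower bound, the brighter group's geometric mean divided by the limit. Symbols came from the platform annotation, which gave 10833 probe sets 1 symbol. The comparison of XEN with ES used limma 3.58.1 under R 4.3.3 (variance trend, 2 residual degrees of freedom, prior 3.76), two-sided, with Benjamini-Hochberg adjustment over 8582 probe sets and a threshold of 0.05; the script was tested on simulated data. The number of arrays limits the precision.

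The members and lists were chosen with earlier results of these data known. A listed gene was represented by the probe set that was brightest on average over the arrays (log2). Named were all members, listed genes past the threshold and the 2 with the smallest p in each role, and the 3 genes of nearest profile for each member differing at least 2-fold. Figures were drawn with matplotlib 3.10.9. The alternatives tried are given in the closing section.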

Additional observations from a re-analysis of the deposited data

Results flagged for a closer look

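Inhba was the one tested member for which the 2 XEN lines lay on opposite sides of ES: both IM8A1 arrays (7.80 and 30.2 units) were below the ES value of 33.3 and XEN1-3 (43.6) was above it. XEN1-3 exceeded the mean of the IM8A1 arrays by 0.99 on the log2 scale. The difference was not tested, since XEN1-3 is 1 array, and all these values were close to the background limit of 27.3 units or under it.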

How the results depend on the processing

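Nodal, Gdf3 (92476_at), Tdgf1, Lefty1 (102345_at) and Fst kept their direction and passed under all 12 alternatives, with adjusted p at most 0.0213, 0.0151, 0.0446, 0.0203 and 0.0161. For Nodal, Gdf3 and Tdgf1, raising values to the background limit made the 3 XEN arrays equal. Their spread there was set by the limit, so that pass adds no support. On raising values to the background limit 1 member rose instead of 2 and 1 gene of the wider list instead of 2, and 240 probe sets rose in all, against 479 (536 fell, against 433). Leaving out 1 XEN array gave 185 to 778 probe sets that rose and 181 to 710 that fell, the highest without XEN1-3, and 1 to 2 genes of the wider list that rose and 0 to 4 that fell; it gave 2 to 3 members that rose and 4 that fell. With each XEN line counted once, 1 gene of the wider list fell. The log2 difference of Inhba ran from -0.68 to 0.099 on leaving out 1 XEN array, with the sign turned without IM8A1-I, and Lefty1 (162480_f_at) passed as lower only without a filter (-0.98, adjusted p = 0.0342), where it was first tested. Between IM8A1-II and IM8A1-I the count of members at least 2-fold apart was 1, but 0 with an offset of the 50th percentile, on raising values to the limit and with a filter at the 60th percentile, and 2 without a filter. Between XEN1-3 and IM8A1-I it was 2, but 1 under the same 3 settings and 4 without a filter. With no filter Inhbb, a ligand gene of the wider list under the limit on all arrays, passed as lower too. The cause of these changes was not tested. No paired analysis was possible because the ES group has 1 array. Signal near background limits what can be said of Inhba, and of Nodal, Gdf3 and Tdgf1 within XEN.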
